A study of Mus musculus with 10 samples.

Results

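The acute phase genes *Saa1*, *Saa2*, *Saa3*, *Saa4*, *Hp*, *Orm1*, *Orm2*, *Lcn2* and *Ptx3* were followed in the epididymal white adipose tissue (eWAT) of 10 mice. The 9 genes were chosen by name after their signals and log ratios on these 10 arrays were known. Each gene had 1 probe and 1 spot, so that 9 of the 55681 probes and 9 of the 34797 gene symbols on the array were read. All mice were C57BL/6JOlaHsd wild-type males, 9 weeks of age at the start. They received a low fat diet for 3 weeks and then a high fat diet (HFD) for 12 weeks, at 29°C throughout. The iron chelator desferrioxamine (DFO) was then injected once a day for 5 days at 100 mg/kg, and on day 6 the mice were decapitated after 2 h without food. On every array the RNA of 1 mouse carried the dye Cy5 and a common pool carried Cy3. The pool held RNA of all mice of the wider study, control mice and these DFO mice included. No array of a control mouse was analysed here and dyes were not swapped, so the values describe differences among DFO mice and not an effect of DFO. The labels name the mice as separate replicates, numbered 1 to 10.

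Acute phase proteins are secreted proteins whose plasma levels shift within hours of infection or injury. Most are made by the liver under interleukin 6 and interleukin 1, acting through the transcription factors STAT3, C/EBP beta, C/EBP delta and NF-kappa B. Several are also made in fat: *Saa3* is the serum amyloid A gene best known from mouse adipose tissue and macrophages, whereas *Saa1* and *Saa2* are the liver forms. Haptoglobin and the orosomucoids are secreted by adipocytes, and lipocalin 2, which binds the iron-loaded siderophores of bacteria, is made by adipocytes, epithelia and neutrophils.

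The serum amyloid genes lie side by side, and what each probe can read depends on how far their sequences differ. On the array's mm9 annotation the probes were at chr7:53970389-53970448 for *Saa3*, chr7:53983662-53983721 for *Saa4* and chr7:53996070-53996129 for *Saa1*, all on the minus strand, and at chr7:54009622-54009681 on the plus strand for *Saa2*. Neighbouring probes lay 13.3, 12.4 and 13.6 kb apart in that order. The probes for *Orm1* (chr4:63006483-63007090, plus strand) and *Orm2* (chr4:63024979-63025038, plus strand) lay 18.5 kb apart. The 60 bases of the *Orm1* probe were spread over 608 bases of the genome, so the sequence it reads is interrupted in the genome. The other probes were at chr8:112099045-112099104 (*Hp*, minus), chr2:32240199-32240258 (*Lcn2*, minus) and chr3:66029245-66029304 (*Ptx3*, plus). The annotation given with the arrays did not state exon or intron for these positions.

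The probes of both pairs of close relatives that were measured in all mice are shown, 5′ to 3′, because each pair gave almost the same profile over the mice.
*Saa1*: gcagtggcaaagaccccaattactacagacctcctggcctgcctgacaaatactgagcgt
*Saa3*: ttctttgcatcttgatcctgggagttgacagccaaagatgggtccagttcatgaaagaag
*Orm1*: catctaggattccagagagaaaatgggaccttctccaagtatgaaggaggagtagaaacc
*Orm2*: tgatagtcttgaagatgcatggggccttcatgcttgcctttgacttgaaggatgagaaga
The longest run shared by the *Saa1* and *Saa3* probes was 6 bases, and that shared by the *Orm1* and *Orm2* probes was 7 bases. The probes start at different places of their transcripts, at base 346 for *Saa1* and 56 for *Saa3*, and at 320 for *Orm1* and 396 for *Orm2*. Short shared runs between them therefore do not show that a probe separates its gene from a relative. Cross-hybridisation of related transcripts to one probe was not tested.

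The 250 bases before the gene start were available from RefSeq (GRCm38.p6) for 7 of the 9 genes, all except *Hp* and *Orm1*. They were searched for the letters of 4 factor motifs that act on acute phase genes or respond to low iron: TTGCNNAA (C/EBP core), TTCNNNGAA (STAT), GGANNTTCC (kappa B core) and ACGTG (the core of the hypoxia response element). Both strands were read, so that TTNNGCAA also counts as the C/EBP core. All 7 promoters held the C/EBP core letters, with 8 matches in all, against 9.56% of 32851 RefSeq promoters of the same length. *Saa1* and *Saa2* were 94.8% identical over the aligned promoter and are not independent of each other. A stretch of 60 bases around each match is shown, with the matching letters in capitals.
*Saa1* promoter (chr7:46743129-46743188, minus): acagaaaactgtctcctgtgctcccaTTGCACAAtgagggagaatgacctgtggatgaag
*Saa2* promoter (chr7:46751624-46751683, plus): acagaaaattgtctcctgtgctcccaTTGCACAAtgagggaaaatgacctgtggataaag
*Saa3* promoter (chr7:46715742-46715801, minus): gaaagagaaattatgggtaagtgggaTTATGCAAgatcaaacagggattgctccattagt
*Saa4* promoter, distal match (chr7:46732794-46732853, minus): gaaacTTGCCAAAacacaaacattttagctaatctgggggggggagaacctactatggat
*Saa4* promoter, proximal match (chr7:46732622-46732681, minus): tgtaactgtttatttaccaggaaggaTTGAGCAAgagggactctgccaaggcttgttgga
*Orm2* promoter (chr4:63362303-63362362, plus): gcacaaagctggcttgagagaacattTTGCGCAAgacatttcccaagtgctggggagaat
*Lcn2* promoter (chr2:32387922-32387981, minus): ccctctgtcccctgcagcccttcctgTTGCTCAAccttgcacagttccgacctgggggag
*Ptx3* promoter (chr3:66219804-66219863, plus): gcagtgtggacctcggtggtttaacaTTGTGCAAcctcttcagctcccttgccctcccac
The matches began 182 (*Saa1*), 183 (*Saa2*), 99 (*Saa3*), 245 and 52 (*Saa4*), 120 (*Orm2*), 216 (*Lcn2*) and 57 (*Ptx3*) bases before the start. None of the 7 windows held the STAT, kappa B or hypoxia letters, which were found in 7.02%, 3.59% and 16.6% of all promoters. A match is a stretch of letters and not a measured binding site, and longer or less exact sites were not searched.

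Of the 9 genes, *Saa1*, *Saa3*, *Hp*, *Orm1*, *Orm2*, *Lcn2* and *Ptx3* were well above background in Cy5 on all 10 arrays, by the scanner software's own call. *Saa2* passed on 3 arrays and *Saa4* on 0. Values below are log2 ratios of a mouse to the pool, after background correction and loess within each array, so that 0 stands for a level equal to the pool and each unit for a doubling. The range is the highest minus the lowest of the 10 mice. The array called 27804 probes expressed, that is well above background in Cy5 on at least 5 of 10 arrays, and 27711 of them had a value on every array. Their median range was 0.55. At least 4-fold between the highest and the lowest mouse was reached by 6 of the 7 expressed acute phase genes and by 3.61% of all expressed probes. Since the genes were chosen with these values in view, the count is a description.

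**Figure D1:**
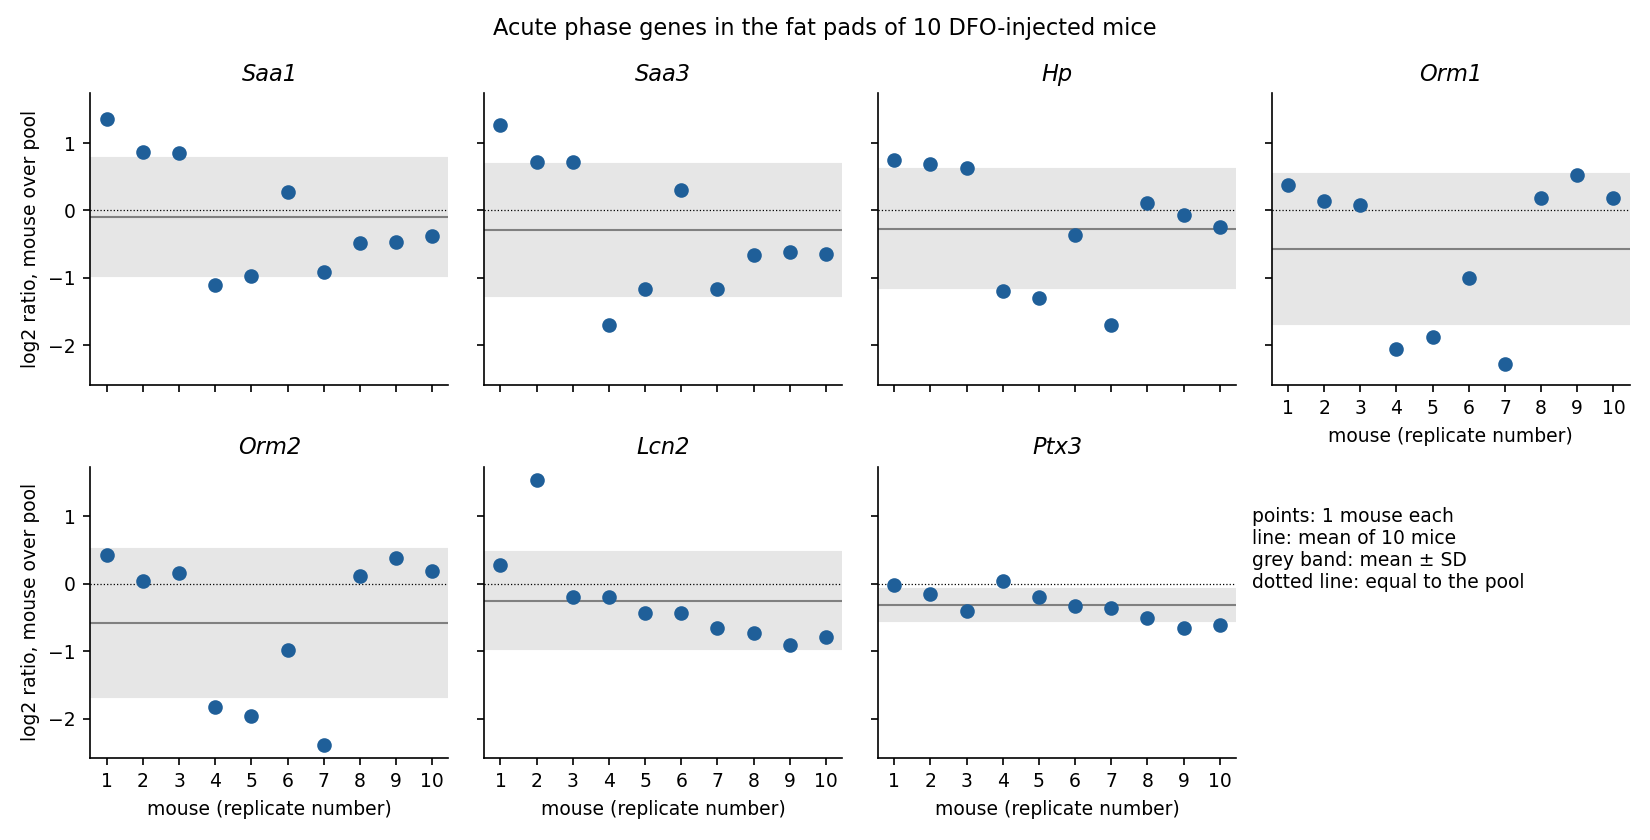
Log2 ratio to the pool (vertical axis) of the 7 expressed acute phase genes in mice 1 to 10 (horizontal axis), with the mean (line) and SD (grey band). *Saa1* and *Saa3* have nearly the same profile, *Orm1* and *Orm2* another in which only mice 4 to 7 lie below -0.9, and in *Lcn2* mouse 2 stands at 1.54.

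**Figure D2:**
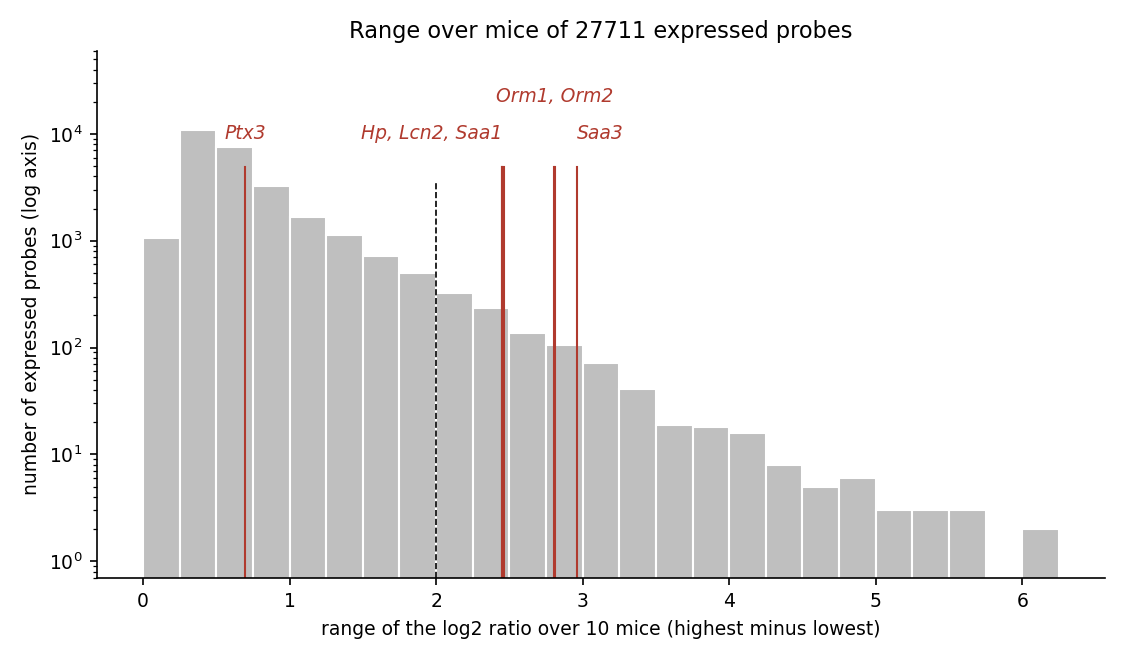
Number of expressed probes (log axis) by the range of their log2 ratio over the 10 mice, in bins of 0.25, with the acute phase genes as red lines and 4-fold as a dashed line. *Ptx3* lies in the bulk at 0.70 and the other 6 genes lie between 2.45 and 2.96.

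*Saa3*, a serum amyloid A that is made locally and that attracts monocytes, had the widest range of the expressed members. Its log2 ratio ran from -1.70 in mouse 4 over a median of -0.63 to 1.27 in mouse 1, a 7.79-fold span, with a mean of -0.29 ± 0.98 (SD, n = 10). Mice 1, 2, 3 and 6 were above the pool and the other 6 mice were below it. Mice 8, 9 and 10 lay close together at -0.66, -0.61 and -0.65, whereas mice 4, 5 and 7 were lowest. The error that the scanner software gave for each log2 ratio was between 0.205 and 0.261, and the Cy3 intensity of the pool at this spot varied with an SD of 0.07 over the arrays.

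*Saa1*, an acute phase apolipoprotein of high density lipoprotein, had nearly the same order of mice, with mice 9 and 10 exchanged. It ran from -1.11 in mouse 4 over a median of -0.42 to 1.35 in mouse 1, a 5.52-fold span with a mean of -0.10 ± 0.88 (SD, n = 10). Mice 1, 2, 3 and 6 were again the 4 above the pool. Where a ratio stands against the pool depended on the centring: with each array centred on its median instead of loess, the means of *Saa1*, *Saa3*, *Hp* and *Lcn2* turned to 0.42, 0.29, 0.54 and 0.25, and *Saa1* was above the pool in 7 mice and *Saa3* in 6. Within a mouse, *Saa1* minus *Saa3* averaged 0.19 ± 0.16 (SD, n = 10) on the log2 scale and was above 0 in 9 of 10 mice, with a maximum of 0.59 in mouse 4. Apart from mouse 4, both genes therefore stood at similar ratios to the pool in the same fat pad.

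*Saa2*, the second liver form, was near the limit of what the array can read. The 3 arrays on which it was called well above background, those of mice 1, 6 and 2, gave a processed Cy5 signal of 77.0, 30.3 and 28.7. The other 7 mice gave 7.04 to 18.8. These 3 mice were also among the 4 that were above the pool for *Saa1* and *Saa3*. The pool itself was not well above background on any array for *Saa2*, so no fold is given, and the software's error of its log2 ratio was 0.454 to 1.28. *Saa4*, a serum amyloid A that is made constitutively by the liver, was not well above background in either channel on any array.

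*Hp* encodes haptoglobin, which binds free haemoglobin for uptake through CD163. Its log2 ratio ran from -1.70 in mouse 7 over a median of -0.16 to 0.75 in mouse 1, a 5.46-fold span with a mean of -0.27 ± 0.88 (SD, n = 10). Mice 1, 2 and 3 were highest (0.75, 0.69 and 0.64), mice 8, 9 and 10 lay near the pool (0.10, -0.07 and -0.25), mouse 6 was at -0.36 and mice 4, 5 and 7 were lowest (-1.19, -1.30 and -1.70). After loess, mice 1, 2 and 3 were thus highest and mice 4, 5 and 7 lowest, as for the serum amyloids. Mouse 6 lay below mice 8, 9 and 10, as for the orosomucoids. Part of this order depended on the scaling. With median centring mouse 3 (0.46) lay below mice 8, 6, 9 and 10 (1.02, 0.80, 0.74 and 0.56). In the authors' normalized table mouse 6 (17.58) was above mice 9 and 10 (17.50 and 17.35). Mice 4, 5 and 7 stayed lowest in both.

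The size of the *Hp* range depended on the channel that was read. The Cy3 channel carries the same pool on every array, yet its log2 intensity for *Hp* ran from 16.65 to 17.68, with an SD of 0.36, the 4th highest among the 100 probes with the highest mean Cy5 intensity (their median SD was 0.10). Over the 10 arrays Cy3 went down where Cy5 went up (Pearson r = -0.979, points that share an array). Both channel values were computed from the normalized ratio and the mean of both channels. Part of this inverse relation is therefore built in by the normalization. The scanner's processed signals for *Hp*, which did not pass this step, ran from 97956 to 190343 in Cy5 and from 105266 to 324834 in Cy3. The pool thus had the wider span, and an inverse relation was seen in these signals too. Mice 7, 5 and 4 were lowest in Cy5 (97956, 102720 and 118147) and highest in Cy3 (324834, 258157 and 278772). Mouse 3, highest in Cy5, had 132899 in Cy3, and mouse 2, lowest in Cy3, had 159551 in Cy5. In the normalized values an inverse relation was common among those 100 probes, of which 43 had r below -0.5, with a median of -0.30. For *Orm1* the pool's SD was 0.05. Read from the normalized Cy5 value, the range of *Hp* was 1.47 instead of 2.45, with mouse 7 lowest in both and mouse 2 highest in Cy5. The pool's signal also contributes to that value, so it is not an independent reading. No spot on any array was called saturated, and why the pool's signal moved at this spot was not tested.

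**Figure D3:**
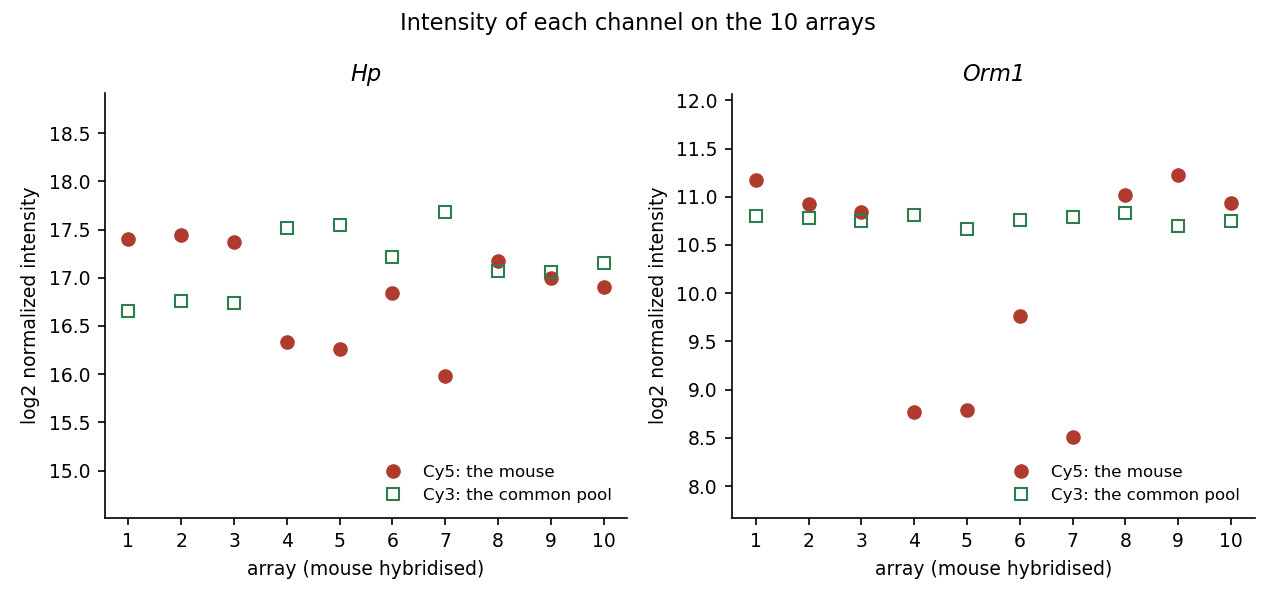
Normalized log2 intensity (vertical axes, each spanning 4.4 units) of *Hp* and *Orm1* on the 10 arrays (horizontal axis), with the mouse in Cy5 as filled points and the pool in Cy3 as open squares. For *Hp* the pool runs from 16.65 to 17.68 in the opposite direction to the mice, which the normalization builds in in part. For *Orm1* it stays within 10.67 to 10.83.

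*Orm1* and *Orm2* encode orosomucoid, the alpha-1-acid glycoprotein, a lipocalin that carries basic drugs and dampens immune cells. *Orm1* ran from -2.28 in mouse 7 over a median of 0.12 to 0.53 in mouse 9, a 7.02-fold span with a mean of -0.57 ± 1.12 (SD, n = 10). *Orm2* ran from -2.39 in mouse 7 over a median of 0.08 to 0.42 in mouse 1, a 6.99-fold span with a mean of -0.59 ± 1.09 (SD, n = 10). In both genes mice 4, 5 and 7 were lowest, between -1.83 and -2.39, and mouse 6 came next (-0.99 in *Orm2*). The other 6 mice lay between 0.05 and 0.53, and neighbours in their order differed by less than the software's error of 0.204 to 0.304. *Orm1* minus *Orm2* averaged 0.02 ± 0.11 (SD, n = 10) and was above 0 in 5 of 10 mice. A further orosomucoid gene, *Orm3*, which is no member, ran from -1.83 in mouse 7 to 1.16 in mouse 10, and mice 8, 9 and 10 (0.80, 1.10 and 1.16) were above mice 1, 2 and 3 (0.37, -0.48 and 0.39) in it.

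*Lcn2*, lipocalin 2, had 1 mouse far from the rest. It ran from -0.91 in mouse 9 over a median of -0.44 to 1.54 in mouse 2, a 5.48-fold span with a mean of -0.25 ± 0.72 (SD, n = 10). Mouse 1 followed at 0.28 and the other 8 mice lay between -0.19 and -0.91. Without mouse 2 the range was 1.20, so this mouse decides that *Lcn2* passes 4-fold, as mouse 1 does for *Saa1* (1.97 without it). In mouse 2 *Lrp2*, which encodes megalin, a receptor that takes up lipocalin 2 in epithelia, stood at 2.28 against -0.89 to -2.17 in the other mice. *Krt8* and *Krt18*, keratins of simple epithelia and mesothelium, stood there at 1.91 and 1.85, and *Hnf4a*, a transcription factor of liver, kidney and gut epithelium, at 1.66 against -1.64 to -2.17. *Krt19*, a keratin of the same kind, was also highest in mouse 2, at 0.65 with 0.22 next. The 8 expressed mesothelial markers that are no keratins were below the pool there, with *Msln* at -0.96, *Upk3b* at -0.98 and *Gpm6a* at -0.36. The part of these epithelial genes in the *Lcn2* value was not tested.

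Neutrophil RNA, another source of lipocalin 2, gave mixed values. Of 12 neutrophil markers 8 were expressed, and their mean log2 ratio was -0.05 in mouse 2, within the -0.39 to 0.43 of all mice. *S100a8*, a calgranulin subunit, was highest in mouse 2 at 0.90, but its partner *S100a9* was highest in mouse 8 at 2.25, where *Lcn2* was -0.73. The granule gene *Ltf* was well above background on 4 arrays, *Cxcr2* on 3, *Ngp* on 1 and *Mmp8* on 1. Of the other markers, *Camp*, *Elane*, *Ly6g* and *Csf3r*, like *S100a8* and *S100a9*, passed on all 10 arrays, and *Mpo* and *Retnlg* on 7.

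*Ptx3*, the long pentraxin, which opsonises microbes and is made by stromal, endothelial and myeloid cells, varied least. It ran from -0.66 in mouse 9 over a median of -0.35 to 0.04 in mouse 4, a 1.62-fold span with a mean of -0.32 ± 0.24 (SD, n = 10). The range of 0.70 was a little above the 0.55 of the median expressed probe, and the software's error was 0.233 to 0.290. Its processed Cy5 signal was 44.6 to 140.1, close to background. The range was 0.88 without background subtraction and 1.62 with the scanner's ratio, and the cause of this difference was not tested. Mouse 4, lowest for *Saa3*, was the highest mouse here.

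The members fell into profiles rather than one shared order, as the plot of pairs shows. Pearson's r of *Saa1* and *Saa3* was 0.992 (Spearman's rho 0.988), and that of *Orm1* and *Orm2* was 0.995 (rho 0.915), over 10 mice whose values come from the same arrays and the same pool. *Hp* was close to both pairs, with r = 0.857 (rho 0.842) for *Saa3* and r = 0.904 (rho 0.745) for *Orm1*. *Saa3* and *Orm1* had r = 0.650 (rho 0.576). These are descriptions of 21 pairs with no p-value.

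The pair *Saa3* and *Orm1* shows where the profiles part. *Saa3* minus *Orm1*, within a mouse, was above 0 in 7 mice, from 0.35 in mouse 4 to 1.30 in mouse 6. It was below 0 in mice 8, 9 and 10, at -0.85, -1.14 and -0.83. Those 3 mice had *Orm1* at 0.18 to 0.53 and mice 1, 2 and 3 at 0.09 to 0.38, and *Saa3* was on the low side in the first. With median centring mouse 3 had -0.16 for *Orm1*, below mice 1, 2, 8, 9 and 10. *Hp* minus *Orm1* had the same 3 mice below 0, at -0.08, -0.60 and -0.43, and the other 7 between 0.37 and 0.86. With median centring the signs of *Saa3* minus *Orm1* were the same in all 10 mice, and *Hp* minus *Orm1* was 0.14 in mouse 8.

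Leaving mice out moved several of these relations. Without the 2 mice farthest from the median of the first gene, r was 0.986 for *Saa1* and *Saa3*, 0.996 for *Orm1* and *Orm2*, 0.571 for *Saa3* and *Orm1*, and 0.126 for *Saa3* and *Lcn2* (0.565 over all 10 mice). Without mice 4 to 7, a choice made after the values were seen, *Saa1* and *Saa3* had r = 0.999 and *Saa3* and *Hp* r = 0.953 over the 6 other mice. *Hp* and *Orm1* then had r = -0.263 and *Saa3* and *Orm1* r = -0.168, so that their likeness rests on mice 4 to 7. *Saa3* and *Ptx3* had r = 0.124 over 10 mice and 0.916 over the 6.

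**Figure D4:**
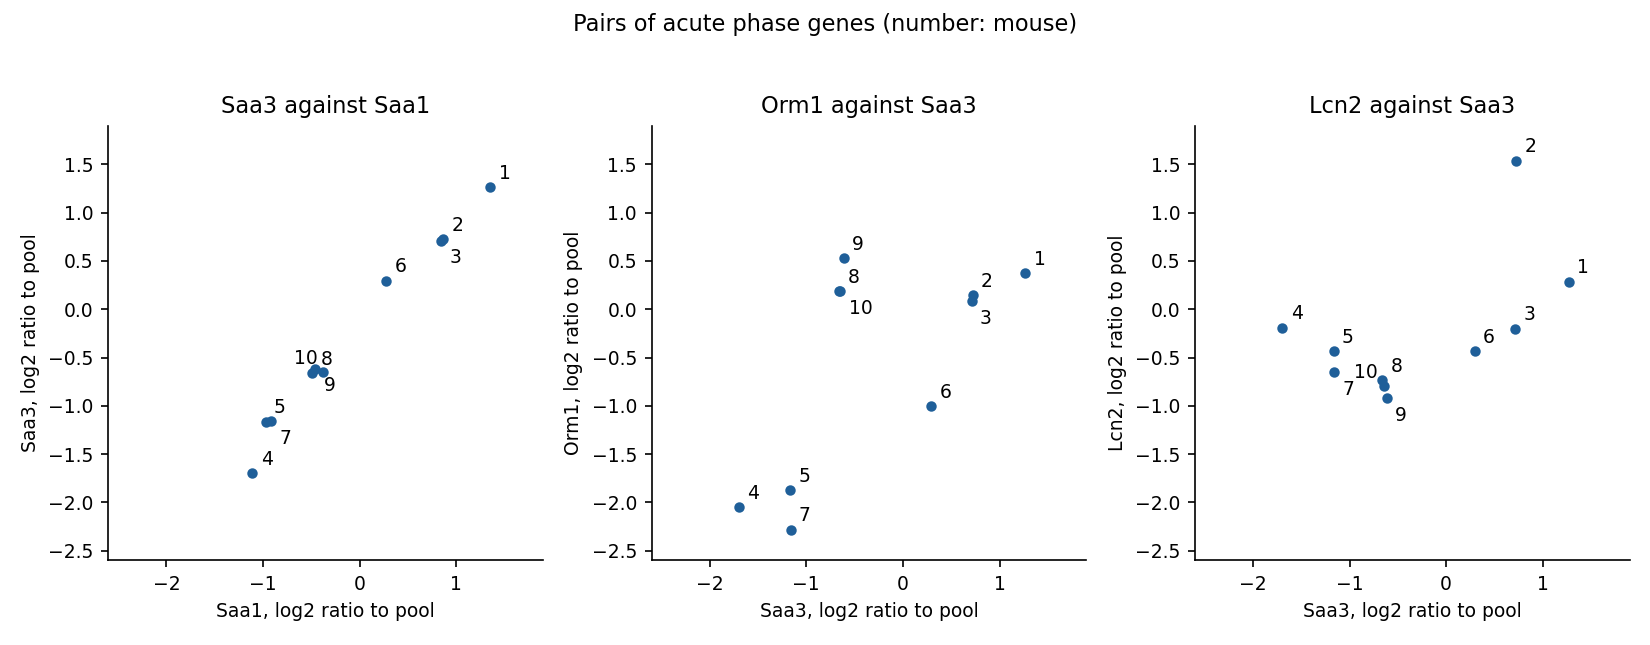
Log2 ratios to the pool of *Saa3* against *Saa1*, *Orm1* against *Saa3* and *Lcn2* against *Saa3*, with 1 point per mouse and its number. *Saa1* and *Saa3* lie on one line, mice 8, 9 and 10 lie above the others of like *Saa3* in *Orm1*, and mouse 2 stands apart in *Lcn2*.

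Other acute phase genes that are known to go up in inflammation varied over the mice as well. Of 27 on the array, 18 were expressed, and 3 of them reached a 4-fold range (*Orm3* with 3.00, *C4b* with 2.19 and *Serpina3n* with 2.03), beside 3.61% of all expressed probes; their median range was 1.75. *Serpina3n*, a protease inhibitor, ran from -1.31 in mouse 7 to 0.72 in mouse 1, and *Cp*, the ferroxidase ceruloplasmin, from -1.07 in mouse 4 to 0.47 in mouse 2. *Steap4*, a metalloreductase of adipocytes, ran from -1.48 in mouse 7 to 0.28 in mouse 9. These 3 genes had their 4 lowest values in mice 4 to 7, as *Orm1* and *Orm2* did. *Hpx*, the haem scavenger hemopexin, had its highest value in mouse 2 (1.19) and its lowest in mouse 10 (-0.81). *Mt1*, a metallothionein, was highest in mouse 1 at 0.88, and *Mt2* also, at 1.40, but *Mt2* lacked a value on 1 array and was left out of the counts. *Cd14* and *Il1rn*, both made by macrophages, ran the other way, with their 4 highest values in mice 4 to 7.

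Of 8 proteins whose plasma level goes down in inflammation, 3 were expressed in these fat pads. *Rbp4*, the retinol carrier, had a range of 4.47, from -3.56 in mouse 7 to 0.91 in mouse 9. *Trf*, transferrin, ran from -0.96 in mouse 4 to 0.42 in mouse 3. *Ahsg*, fetuin A, went the other way, from -0.80 in mouse 10 to 1.24 in mouse 7. *Rbp4* and *Trf* thus followed the order of *Orm1* more than they opposed it.

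Several acute phase genes that mark the liver response were at or near background. *Crp*, *Apcs* (serum amyloid P), *Fgb*, *Fgg*, *Hamp* and *Serpina3k* were well above background on 0 arrays, *Fga* on 1 and *Itih3* on 4. Among 12 hepatocyte markers 7 were not expressed: *Alb*, *Apoh* and *Cps1* passed on 0 arrays and *Ttr* on 1, beside the 3 fibrinogen genes. The other 5 (*Ahsg*, *Apoa2*, *Serpina1a*, *Cyp2e1* and *Hnf4a*) were expressed. The *Saa1*, *Hp* and orosomucoid signals were thus read in tissue in which albumin, transthyretin and fibrinogen transcripts were at or near background.

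Of 11 genes of cytokines that induce acute phase genes, 6 were expressed. A 4-fold range was reached by 0 of them, beside 3.61% of all expressed probes, and so few genes make this count uninformative. Their median range was 0.54, beside 0.55 for all expressed probes, with *Il1b* at 1.11 and *Tnf* at 1.06. *Il6* was well above background on 5 arrays with a range of 0.53, from -0.35 in mouse 9 to 0.19 in mouse 6. *Il1b* ran from -0.43 in mouse 9 to 0.68 in mouse 8, and *Tnf* from -0.50 in mouse 9 to 0.56 in mouse 6. *Tnf* had its 4 highest values (0.48 to 0.56) in mice 4 to 7, the mice in which the orosomucoids were lowest. In *Il6* mouse 1 was at 0.13, mice 2 and 3 at -0.25 and -0.30 and mice 4 to 7 between 0.07 and 0.19.

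All 11 cytokine receptor genes and all 15 genes of the transcription factor and feedback list were expressed. A 4-fold range was reached by 0 of either, beside 3.61% of all expressed probes. Their median ranges were 0.73 and 0.56, beside 0.55 for all expressed probes. *Il6ra*, the interleukin 6 receptor, had a range of 0.21, and *Il6st*, its signalling partner gp130, one of 0.73 with the 4 lowest values in mice 4 to 7. *Cebpd*, the C/EBP delta gene, had the widest range of the factors, with -1.02 in mouse 6 and 0.48 in mouse 1. Its highest mice were 1, 9 and 8 (0.48, 0.44 and 0.39). *Cebpb* had a range of 0.74 and was highest in mouse 5, *Stat3* had 0.61 and *Nfkbiz*, an NF-kappa B cofactor, 0.34. *Socs3*, the feedback inhibitor of STAT3 signalling, was highest in mouse 1 at 0.52 against -0.43 to -0.00 in the others. Mouse 1 was also the highest mouse for *Saa1*, *Saa3*, *Hp* and *Orm2*. Transcript levels of these factors do not show their activity.

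Of 20 genes of receptors and partners of the members, 19 were expressed, with a median range of 1.25 beside 0.55 for all expressed probes. A 4-fold range was reached by 5 of them (*Lrp2*, *Hmox1*, *Slc22a17*, *Fcgr1* and *Fcgr3*), beside 3.61% of all expressed probes. *Hmox1*, the haem oxygenase that breaks down haem after haptoglobin uptake, ran from -1.74 in mouse 9 to 1.47 in mouse 4. *Slc22a17*, a proposed lipocalin 2 receptor, ran from -1.49 in mouse 7 to 0.57 in mouse 2, the mouse with the highest *Lcn2*. *Cd163*, the haptoglobin receptor, was well above background on 7 arrays and had a range of 0.87, with its top value of 0.60 in mouse 1. *Scarb1*, a receptor for serum amyloid A and high density lipoprotein, had a range of 0.56 and *Fpr2*, through which serum amyloid A attracts leukocytes, one of 0.32. *Mmp9*, which lipocalin 2 binds, passed on 4 arrays.

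The means of the adipocyte and macrophage markers set mice 4 to 7 apart from the others. Of 12 adipocyte markers 11 were expressed (*Retn* lacked a value on 1 array), and their mean log2 ratio was -2.11 to -1.20 in mice 4 to 7 and -0.10 to 0.64 in the other 6. *Adipoq*, adiponectin, ran from -2.78 in mouse 7 to 0.81 in mouse 9, and *Lep*, leptin, from -2.27 in mouse 7 to 0.46 in mouse 3. *Cfd*, adipsin, was between -4.69 and -3.36 in mice 4 to 7 and between -0.70 and 1.45 in the others. All 12 macrophage markers on the array were expressed, and their mean was 0.65 to 0.89 in mice 4 to 7 and -1.02 to -0.02 in the others, with *Emr1*, a surface receptor of mature macrophages, from -1.52 in mouse 9 to 1.55 in mouse 7. Not every marker followed this mean. *Cd163* went the other way, with -0.28 to -0.11 in mice 4 to 7 and 0.15 to 0.60 in the others. *Marco* was 1.04 in mouse 1 and -0.10 in mouse 5, and *Fcgr1* was 0.60 in mouse 2 and 0.42 in mouse 4. In bulk tissue fewer cells of a type and less RNA per cell cannot be told apart. The part of these shifts in the orosomucoid, haptoglobin and serum amyloid values was not tested.

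Mouse by mouse, the serum amyloids and the marker lists coincided in part. Mice 7, 4 and 5 had the lowest adipocyte means (-2.11, -1.93 and -1.70) and also the lowest *Saa3* (-1.16, -1.70 and -1.16). Mice 1 and 3 had adipocyte means of 0.27 and 0.22 with *Saa3* at 1.27 and 0.71, and mice 8, 9 and 10 had 0.52, 0.64 and 0.53 with *Saa3* at -0.66, -0.61 and -0.65. Mouse 6 had an adipocyte mean of -1.20 with *Saa3* at 0.30. The macrophage mean of mouse 6 was 0.65, beside 0.88 in mouse 4, where *Saa3* was -1.70.

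Other tissues that a fat pad can carry were looked for in the same way. Of 14 epididymal epithelium markers 2 were expressed, with means of -0.09 to 0.76. Of 12 mesothelial markers 11 were expressed, with means of -1.49 in mouse 4 to 0.32 in mouse 10. Of 9 blood genes 6 were expressed, among them *Hba-a1*, a haemoglobin chain, from -2.42 in mouse 7 to 0.71 in mouse 8. The blood mean was -1.72 to -1.11 in mice 4 to 7 and -0.61 to 0.50 in the others.

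**Figure D5:**
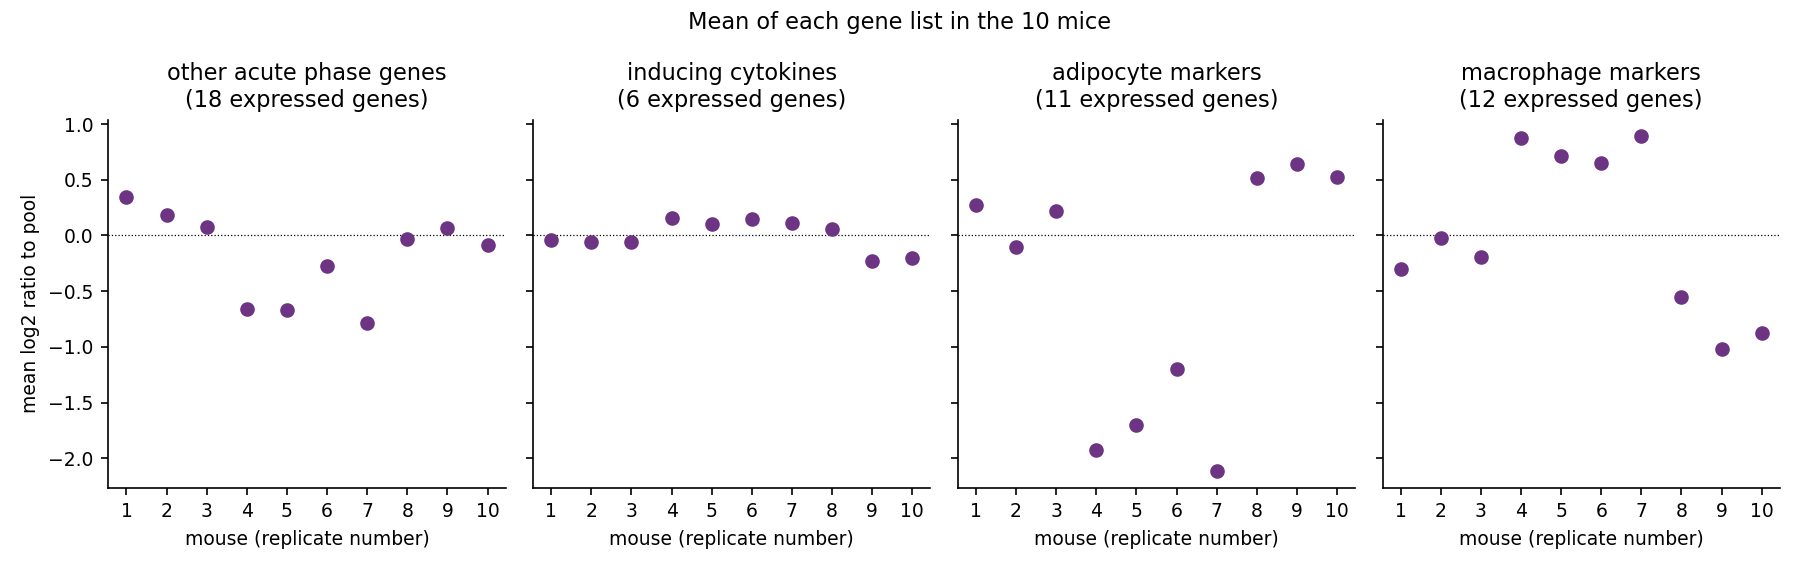
Mean log2 ratio to the pool (vertical axis) of the expressed genes of 4 lists in mice 1 to 10 (horizontal axis). The adipocyte mean is -2.11 to -1.20 in mice 4 to 7, where the macrophage mean is 0.65 to 0.89, and the inducing cytokines stay between -0.23 and 0.16.

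The genes most like each member were ranked by Pearson's r over the 10 mice, among 11405 genes well above background in both channels on every array. For *Saa3* these included *Tmem176a*, a membrane protein of myeloid cells (r = 0.975), and *Mx1*, an interferon-induced GTPase (r = 0.922). Both were also among the 3 highest for *Saa1* (0.966 and 0.949). Their ranges were smaller: *Tmem176a* ran from -0.43 to 0.62 where *Saa3* ran from -1.70 to 1.27. *Msl3l2*, *Tspan5* and *BC052688* were lowest for both serum amyloids, with r from -0.893 to -0.917.

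*Hp* was most like *Atp1a4*, a sodium pump subunit (r = 0.988), and 2 other acute phase genes, *Lrg1* (r = 0.984, with the same order of all 10 mice) and *Serpina3n* (r = 0.980). *Anxa3*, *Tubgcp4* and *Mospd2* were lowest (-0.959, -0.957 and -0.953). The orosomucoids were most like *Serpina3i*, a serpin gene next to *Serpina3n* in name (r = 0.997 for *Orm1* and 0.998 for *Orm2*), followed by *Zfp423* (0.995), a factor of preadipocytes, and *Glb1l2* (0.995) for *Orm1*, and by *Olfr558* (0.997) and *Klf14* (0.996) for *Orm2*. At the other end were mast cell proteases, *Cma1* (-0.995) and *Cpa3* (-0.994) for *Orm1* and *Cpa3* (-0.993), *Mcpt4* (-0.993) and *Cma1* (-0.992) for *Orm2*, followed for *Orm1* by *A530064D06Rik* (-0.991). *Cpa3* ran from -1.54 to 2.49 over the mice.

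*Lcn2* was most like *Vcam1*, an adhesion molecule of inflamed endothelium and mesothelium (r = 0.955), *Sobp* (0.950) and *Tsc22d4* (0.947). It was least like *Actr8* (-0.969), *Gm7102* (-0.925) and *Ncoa4* (-0.911), the receptor that sends ferritin to lysosomes. Spearman's rho of these genes with *Lcn2*, in which mouse 2 stands apart, was 0.927, 0.879, 0.806, -0.867, -0.636 and -0.794 in that order. *Ptx3* was most like *Clec4a1*, a lectin of myeloid cells (0.937), *Tuba3b* (0.907) and *Sned1* (0.895), and least like *Ddx27* (-0.946), *Prkd3* (-0.938) and *Radil* (-0.931). With 10 mice and 11405 genes, high values of r arise in any ranking of this kind, and likeness in r says nothing of shared function.

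The 10 arrays lay on 5 slides with 2 mice each, the one batch that could be read. A limma moderated F test over slides called 0 of 27711 expressed probes (0%) after Benjamini-Hochberg adjustment, and 1136 had an unadjusted p under 0.05; with 2 arrays per slide such a test can miss sizeable slide effects. The members' adjusted p-values were 0.697 to 0.698, the smallest unadjusted p being 0.00649 for *Lcn2*, whose highest mice, 1 and 2, shared a slide. The median difference between mice of 1 slide was 0.08 for *Lcn2* and 0.14 for *Ptx3*, against 0.51 and 0.27 between mice of different slides. For *Saa3* it was 0.54 against 1.06 and for *Orm1* 0.87 against 1.19, and the largest differences within a slide were 2.41 for *Saa3* (mice 3 and 4) and 2.47 for *Orm1* (mice 7 and 8).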

How the data were processed

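The 10 scanner files, as deposited, held spot intensity in both channels and the log10 ratio of Cy5 over Cy3 from Agilent Feature Extraction 10.7.3.1. The authors' normalized table, deposited as log2 values for 30733 probes, was used only as an alternative; it held 7 of the 9 genes. How it was normalized is not given in the sources used here. It was matched by feature number (r = 0.994 to 0.999 with log2 Cy5 intensity).

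Mean intensities were background-corrected with normexp (offset 50) and normalized within arrays by loess in limma 3.58.1 (R 4.3.3), with control spots and outlier flags at weight 0; flagged spots were then left out. Channel values were computed from the loess ratio and the mean log2 intensity of both channels, after that mean was normalized between arrays (Aquantile). Median Cy5 intensity was 53.0 to 79.0 per array over a local background of 32 to 37, and the number of arrays limits the precision. The slide test was also run on simulated data with added slide shifts, and its outcome there is not given here.

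The members and lists were chosen with earlier results of these data known. Named genes were all members, the 3 most and least like each of them in r, and genes of the fixed lists; list genes beyond those singled out in the rule were named after their values were seen. One gene that this rule names for *Saa1* and *Saa3* is not reported here. RefSeq tables matched 22290 of 34797 symbols. Apart from the slide test, which covered all expressed probes, members were described with no test. Alternatives were no background subtraction, median centring, the scanner's ratio, the authors' table, the Cy5 channel, other filters and left-out mice.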

Additional observations from a re-analysis of the deposited data

Results flagged for a closer look

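A mouse was singled out where its gap to the nearest other mouse, as a share of the range over the 10 mice, was above Dixon's critical value of 0.466. The 7 expressed members and the expressed genes of all lists, 130 genes in all, were looked at, and 9 had such a mouse. The rule singles out about 1 in 20 groups by chance; since these genes were chosen with their values known and share the same mice, no more is read from the count. In mouse 2 these were *Lcn2* (1.54, next 0.28) with a share of 0.511, *Lrp2* (2.28, next -0.89) with 0.711, *Hnf4a* (1.66, next -1.64) with 0.863 and *Krt8* (1.91, next -0.23) with 0.512. In mouse 1 they were *Socs3* (0.52, next -0.00) with 0.548 and *Mt1* (0.88, next 0.24) with 0.613. In mouse 8 they were *S100a9* (2.25, next -0.40) with 0.63 and *Retnlg*, a neutrophil gene (0.85, next -0.06), with 0.67. In mouse 3 *Lcn12*, a lipocalin of the epididymis (0.40, next 0.07), had 0.548. The cause of each was not tested.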

How the results depend on the processing

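Of 21 values for the members' means under another background, centring or the scanner's ratio, 20 moved by less than the SD over mice, and of 49 alternative ranges 45 did so. Median centring still turned the sign of 4 means, of *Saa1* (-0.10 to 0.42), *Saa3* (-0.29 to 0.29), *Hp* (-0.27 to 0.54) and *Lcn2* (-0.25 to 0.25). Larger moves follow. The range of *Hp* was 1.47 in the normalized Cy5 channel (2.45 as reported), a value to which the pool's signal also contributes. The range of *Lcn2* was 1.20 without mouse 2 (2.45). That of *Saa1* moved by less than the SD over mice, to 1.97 without mouse 1 (2.46). These 3 ranges, of *Hp*, *Lcn2* and *Saa1*, are then under 4-fold. With the scanner's ratio the mean of *Ptx3* was -0.71 (-0.32) and its range 1.62 (0.70), and in the authors' table its range was 1.00; *Ptx3* is dim, and the cause was not tested. The percent of expressed probes with a 4-fold range was 2.03 with no filter on dim probes, 5.82 with median centring and 15.3 with the scanner's ratio (3.61). Over all 10 mice, 6 of 7 members passed under each background and centring tried and with the scanner's ratio. Among them *Hp* passed with median centring only at 2.002, just above the limit of 2. The slide test called 0 probes under every alternative, with 935 to 2718 at an unadjusted p under 0.05. Of 126 alternative values of r, 51 differed from the reported one by more than the SD of r with each mouse left out in turn, 21 of them without mice 4 to 7 and 16 without the 2 farthest mice. Leaving out mice 1 or 2, and mice 4 to 7, was chosen after seeing the data. A second probe per gene could not be tried, since each gene has 1. No paired analysis was possible because there is 1 group.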
